A study of Mus musculus with 6 samples.

Results

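Flavin-containing monooxygenases and aldehyde oxidases are enzymes of the liver that oxidise drugs, dietary amines and aldehydes without cytochrome P450. They were followed here through 6 genes taken by symbol, Fmo1, Fmo2, Fmo4, Fmo5, Aox1 and Aox3, each matched by its symbol in a table of 24411 rows. Liver mRNA was sequenced from 3 samples labelled Alb-Cre+/+;Sox9 flox/flox (Sox9 cKO) and from 3 control samples labelled WT. In the Sox9 cKO samples both Sox9 alleles are floxed and Cre is driven by the albumin promoter, which is known to be active in hepatocytes and in the embryonic precursors that they share with bile duct cells. SOX9 is a transcription factor best known from the bile ducts, and which cells lost it was not measured in these samples. C57BL/6J mice are among the strains of the study, but the labels do not tie them to the control samples. Neither age nor sex nor pooling of animals is given in the labels used here. As nothing states that each library came from its own animal, the p-values measure only the spread between these samples.

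Flavin-containing monooxygenases (FMO) sit in the endoplasmic reticulum, hold a flavin, and use NADPH and oxygen to add an oxygen atom to nitrogen or sulfur in their substrates. Aldehyde oxidases (AOX) are cytosolic enzymes with a molybdenum cofactor, a flavin and iron-sulfur centres, which turn aldehydes into acids and oxidise nitrogen-containing rings, releasing reactive oxygen. In mouse liver both families are known to depend on sex, with FMO1 higher in females and AOX activity higher in males. FMO1 also makes taurine from hypotaurine, FMO2 is best known as an enzyme of lung, FMO4 is a minor family member, and FMO5 inserts oxygen next to carbonyl groups.

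On the mm10 assembly (GRCm38, GENCODE annotation) the genes lie at 3 places. Aox1 (chr1:58029931-58106413, plus strand) and Aox3 (chr1:58113130-58200698, plus strand) follow each other in tandem, 6.7 kb apart. Fmo4 (chr1:162793188-162813972), Fmo1 (chr1:162829561-162866610) and Fmo2 (chr1:162874317-162898726) are neighbours on the minus strand, with gaps of 15.6 and 7.7 kb. Fmo5 (chr3:97628804-97655282, plus strand) stands alone. The only annotated gene inside any of them is a small nucleolar RNA on the opposite strand of Aox3. Of all words of 75 bases in the annotated transcripts, the length of a read, 0 were shared between any of the 6 genes. Words also found in other genes made up 6.11% for Fmo1 and 0.0786% for Aox1, and 0 for Fmo2, Fmo4, Fmo5 and Aox3.

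The start-site windows of the Aox1, Aox3 and Fmo4 genes are shown because these are the tandem pair that stood higher in every Sox9 cKO library and the single gene of the 6 that passed the test. Each runs from 250 bases before to 50 bases after a RefSeq start (GRCm38.p6), read along the gene. The RefSeq start of Fmo4 lies inside the span that GENCODE gives the gene. RefSeq windows were found for 5 of the 6 genes. Capitals mark matches on either strand to GCGTG, the core of the dioxin response element bound by the AHR receptor, to GGGCGG, the GC box, and to AGGTCA, a nuclear receptor site.
Aox1 (chr1:58029719-58030018, plus strand): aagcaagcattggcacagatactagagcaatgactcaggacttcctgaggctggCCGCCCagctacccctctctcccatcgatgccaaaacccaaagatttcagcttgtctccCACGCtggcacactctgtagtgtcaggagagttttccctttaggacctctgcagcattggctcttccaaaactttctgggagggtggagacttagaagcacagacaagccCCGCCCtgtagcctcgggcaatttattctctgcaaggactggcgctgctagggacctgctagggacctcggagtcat
Aox3 (chr1:58112886-58113185, plus strand): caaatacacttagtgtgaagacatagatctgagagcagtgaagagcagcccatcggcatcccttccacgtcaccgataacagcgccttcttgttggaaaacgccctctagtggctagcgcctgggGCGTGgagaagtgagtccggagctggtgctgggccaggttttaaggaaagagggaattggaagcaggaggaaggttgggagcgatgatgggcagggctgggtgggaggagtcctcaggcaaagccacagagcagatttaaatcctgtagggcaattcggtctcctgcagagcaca
Fmo4 (chr1:162812500-162812799, minus strand): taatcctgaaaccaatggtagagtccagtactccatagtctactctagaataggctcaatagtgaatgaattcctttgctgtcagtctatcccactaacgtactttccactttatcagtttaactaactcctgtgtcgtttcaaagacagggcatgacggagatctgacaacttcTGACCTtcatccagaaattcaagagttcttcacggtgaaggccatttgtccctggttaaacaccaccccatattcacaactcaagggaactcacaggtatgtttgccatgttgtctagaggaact
The Aox1 and Aox3 windows each hold 1 match to GCGTG, a motif found in 32.4% of all 32851 RefSeq windows of this length, and Aox1 also holds 2 matches to GGGCGG, found in 35.7%. Fmo4 holds 1 match to AGGTCA, found in 16.3%. None of these 3 windows held TGACNNNGC, the core of the antioxidant response element bound by NRF2 (12.4% of windows), TTCNNNGAA, the STAT5 site (8.3%), or AACAAT, a SOX core (10.7%). Read on the opposite strand, AGGTCA shares the letters TGAC with the antioxidant element. The GC content was 54.3% for Aox1, 55.0% for Aox3 and 42.7% for Fmo4. These matches describe letters in the windows, not bound sites.

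Expression was deposited as TPM, each library's transcripts scaled to a common total, which corrects for gene length, so levels can be compared between genes. TPM keeps no sequencing depth, so the depth behind each value is unknown. Differences were tested with limma on log2(TPM + 0.5) over the 12539 genes whose 6 libraries averaged 0.5 TPM or more, a scale that understates the change of low genes. All 6 genes passed that filter. The threshold was a Benjamini-Hochberg adjusted p of 0.05, counted across all of them. Among all tested genes 103 were higher and 1099 lower in Sox9 cKO, so that 91.4% of calls were lower, and the median log2 fold change was -0.24. The count of lower genes was 158 without control replicate 1, 104 without control replicate 2, 267 without control replicate 3, 591 without Sox9 cKO replicate 1 and 718 without Sox9 cKO replicate 2, so that shares of all genes given below hold for the fit with all 6 libraries. Higher genes numbered 45, 32 and 50 when control replicate 1, 2 or 3 was left out. After median centring 256 genes were lower and 63.7% of calls, and after quantile normalization 215 and 64.2%. Sox9 itself had 0.19, 0.40 and 0.68 TPM in Sox9 cKO libraries and 1.69, 1.43 and 1.43 TPM in controls (log2 fold change -1.16, SE 0.25, adjusted p = 0.0323). Sox9 missed the threshold in 10 of 17 other settings, among them median centring, quantile normalization and the removal of any single library other than Sox9 cKO replicate 3. Its log2 fold change lay between -1.74 and -0.66 in all 17.

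Markers of sex were unevenly spread over the groups. Xist, the RNA that coats the silenced X in females, reached at most 0.02 TPM in Sox9 cKO and stood at 114, 123 and 0.01 TPM in controls. Eif2s3y, of the Y chromosome, had 49.9, 47.6 and 48.1 TPM in Sox9 cKO libraries and 0.07, 0 and 51.6 TPM in controls. Thus control replicate 3 is the only control with the marker pattern of the Sox9 cKO libraries, and the 6 genes were also fitted against it alone, assuming that this lone control varies like the Sox9 cKO libraries. Hepatocyte markers summed to 101372 to 114815 TPM in Sox9 cKO and to 133408 to 139561 TPM in controls, and all 6 of them were abundant in every library, as the liver label states. Alb made up most of that sum (74907 to 82381 TPM in Sox9 cKO and 100900 to 110461 TPM in controls), none of the 6 passed the test (limma adjusted p from 0.330 to 0.669), their median log2 fold change was -0.06, and Ttr (0.28), Tat (0.24) and Serpina1a (0.14) were above 0.

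Fmo4 fell in Sox9 cKO, Fmo2 was lower in every Sox9 cKO library, Fmo1 and Fmo5 overlapped between the groups, and Aox1 and Aox3 were higher in every Sox9 cKO library than in any control. Of the 6 genes 1 passed the test as lower and 0 as higher, while 8.76% of all tested genes passed as lower and 0.821% as higher (9.59% either way). The unadjusted limma p was under 0.05 for 4 of the 6, against 29.8% of all tested genes. Groups did not overlap for 2 of the 6 with Sox9 cKO lower and for 2 with Sox9 cKO higher, and among all tested genes the shares were 33.7% and 3.79% (37.5% either way). With 3 against 3 libraries the exact permutation test cannot give a p below 0.1.

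**Figure D1:**
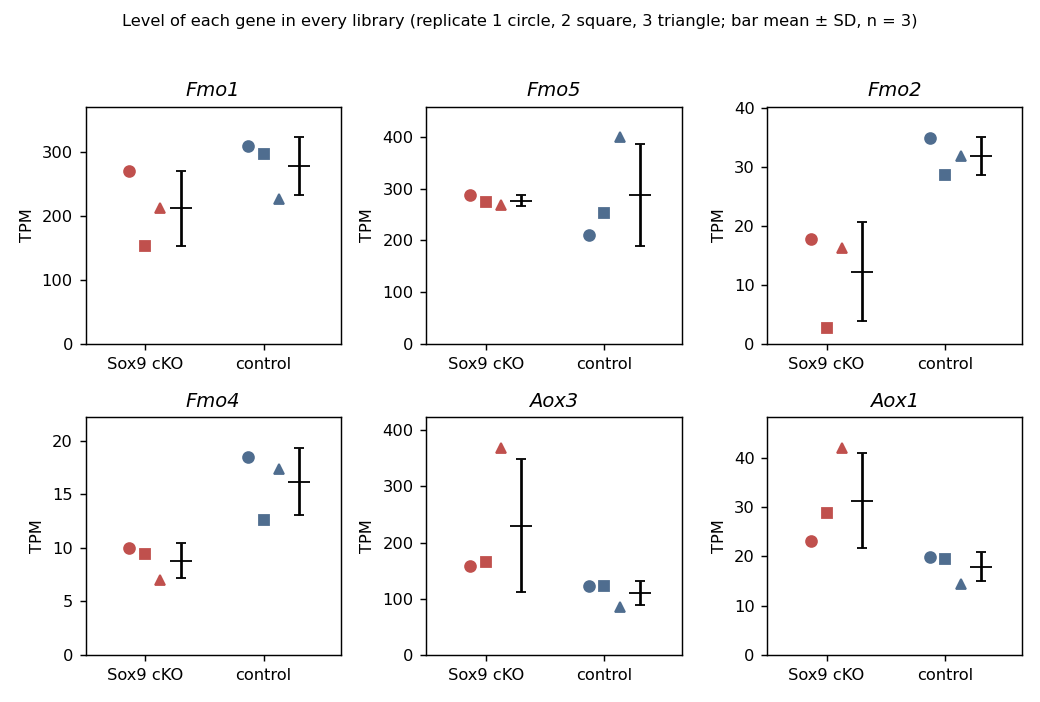
TPM of the 6 genes in each library, Sox9 cKO left and control right, with the mean and SD of 3 libraries as a bar beside the points. Groups do not overlap for Fmo2, Fmo4, Aox3 and Aox1, and they overlap for Fmo1 and Fmo5.

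Fmo4, the minor FMO form, had 10, 9.41 and 6.98 TPM in Sox9 cKO libraries and 18.5, 12.6 and 17.3 TPM in controls. The highest Sox9 cKO library lay below the lowest control, replicate 2. The means were 8.80 ± 1.60 TPM in Sox9 cKO and 16.2 ± 3.11 TPM in controls (SD, n = 3 each), or 54.4% of the control mean. The fitted log2 fold change came to -0.84 with SE 0.20 (limma adjusted p = 0.0401, exact permutation p = 0.1). Relative to the median of all genes it was -0.60, and 10.7% of tested genes had a lower fold change. Fmo4 missed the threshold in 14 of 18 other settings, with adjusted p up to 0.329, including the removal of any single library (log2 fold change -1.0 to -0.69, adjusted p = 0.0644 to 0.144). The direction held in all 18, which the missing overlap fixes in advance wherever libraries are only left out. Against control replicate 3 alone the log2 fold change was -0.96.

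Fmo2, the lung-type FMO, had the largest fitted change of the 6 genes without passing the test. It had 17.8, 2.70 and 16.4 TPM in Sox9 cKO libraries and 35.0, 28.6 and 31.9 TPM in controls. Sox9 cKO replicate 2 stood far below the other 2 Sox9 cKO libraries, while the 3 controls lay close together. The means were 12.3 ± 8.34 TPM in Sox9 cKO and 31.8 ± 3.19 TPM in controls (SD, n = 3 each). The fitted log2 fold change came to -1.69 with SE 0.60 (limma adjusted p = 0.110), and 1.26% of tested genes had a lower one. Without Sox9 cKO replicate 2 the log2 fold change was -0.88 and the adjusted p was 0.0202. In the other 17 settings the gene did not pass, and against control replicate 3 alone the log2 fold change was -1.70.

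Summed markers of stellate cells, endothelium and macrophages were also lower in every Sox9 cKO library than in any control. Of single tested genes, 33.7% were lower in that way and 8.76% were called lower. Marker calls other than that of Sox9 were made only in the fit with all 6 libraries. Stellate cell and fibroblast markers (Lrat, Reln, Dcn, Col1a1, Col3a1, Pdgfrb and Cygb) summed to 96.3 to 190 TPM in Sox9 cKO, lowest in replicate 2. In controls they summed to 321 to 344 TPM, and 6 of 7 were called lower. Most of that sum was Dcn, the 1 that did not pass (limma adjusted p = 0.0517), although its groups did not overlap. Endothelial markers summed to 81.6 to 118 TPM in Sox9 cKO and 136 to 153 TPM in controls, with 2 of 6 called lower. Most of that sum was Clec4g, which overlapped between the groups and did not pass. Lyve1 overlapped too, and the other endothelial markers were lower without overlap. Macrophage markers summed to 53.2 to 131 TPM in Sox9 cKO and 185 to 310 TPM in controls, with 4 of 6 called lower. All 6 were lower without overlap. The lowest of these control sums, 185 TPM, was that of control replicate 3, against 285 and 310 TPM in control replicates 1 and 2. Bile duct markers summed to 44.9 to 66.1 TPM in Sox9 cKO and 64.7 to 114 TPM in controls, so they overlapped. Spp1, which also overlapped, made up most of that sum. Sox9 itself was the only 1 of 6 called lower, but all 6 had log2 fold changes below 0 (median -0.56). Krt7 and Cldn7 were lower without overlap and did not pass (limma adjusted p = 0.117 and 0.0898). The part of these cells in the Fmo2 difference was not tested, and in bulk tissue fewer cells of a type and less RNA per cell cannot be told apart. The lung markers Sftpc, Scgb1a1 and Sftpb were listed at 0 in all 6 libraries, as were the fat cell genes Plin1 and Lep, Adipoq did not exceed 0.14 TPM, and the fat droplet gene Cidec was at 0.94 to 2.35 TPM in Sox9 cKO and 1.36 to 2.12 TPM in controls.

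Fmo1 and Fmo5 were the abundant FMO genes of the 4 and neither passed the test. Fmo1, the taurine-forming enzyme, had 271, 154 and 212 TPM in Sox9 cKO libraries and 310, 297 and 227 TPM in controls. Sox9 cKO replicate 1 lay above control replicate 3, so the groups overlapped. The means were 212 ± 58.6 TPM in Sox9 cKO and 278 ± 44.8 TPM in controls (SD, n = 3 each), with a log2 fold change of -0.41 (SE 0.22, limma adjusted p = 0.252). Against control replicate 3 alone the log2 fold change was -0.13.

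Fmo5 had 288, 275 and 268 TPM in Sox9 cKO libraries and 210, 253 and 399 TPM in controls. The 3 Sox9 cKO values lay inside the range of the controls, and control replicate 3 was the highest library. The means were 277 ± 10.3 TPM in Sox9 cKO and 287 ± 99.0 TPM in controls (SD, n = 3 each). The fitted log2 fold change came to 0.00 with SE 0.23 (limma adjusted p = 0.999). So close to 0, the sign of this estimate has no meaning. Over 18 other settings it ran from -0.53 to 0.28 and was below 0 in 5. Against control replicate 3 alone it was -0.53. Of tested genes, 77.3% had a lower fold change than Fmo5.

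Aox3, the more abundant aldehyde oxidase here, had 159, 165 and 368 TPM in Sox9 cKO libraries and 122, 123 and 84.8 TPM in controls. Every Sox9 cKO library was above every control, and Sox9 cKO replicate 3 stood well above the other 2. The means were 230 ± 119 TPM in Sox9 cKO and 110 ± 21.9 TPM in controls (SD, n = 3 each), a ratio of 2.09. The log2 fold change was 0.97 (SE 0.33) and did not pass (limma adjusted p = 0.0969, exact permutation p = 0.1). Without Sox9 cKO replicate 3 it was 0.57, and against control replicate 3 alone 1.32.

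Aox1, the aldehyde oxidase that humans also carry, had 23.2, 28.7 and 42.0 TPM in Sox9 cKO libraries and 19.9, 19.5 and 14.5 TPM in controls. The groups again did not overlap, with the highest value in the same Sox9 cKO library and the lowest in the same control as for Aox3. The means were 31.3 ± 9.64 TPM in Sox9 cKO and 17.95 ± 3.00 TPM in controls (SD, n = 3 each), a ratio of 1.74. The fitted log2 fold change came to 0.76 with SE 0.23 (limma adjusted p = 0.0769, exact permutation p = 0.1). Without Sox9 cKO replicate 3 it was 0.53, and against control replicate 3 alone 1.04. Neither aldehyde oxidase passed the test in any of 18 other settings. Both were above 0 in all of them, with log2 fold changes of 0.47 to 1.04 for Aox1 and 0.57 to 1.32 for Aox3. As their groups did not overlap, leaving out libraries could not have turned the sign, so this largely repeats the missing overlap.

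**Figure D2:**
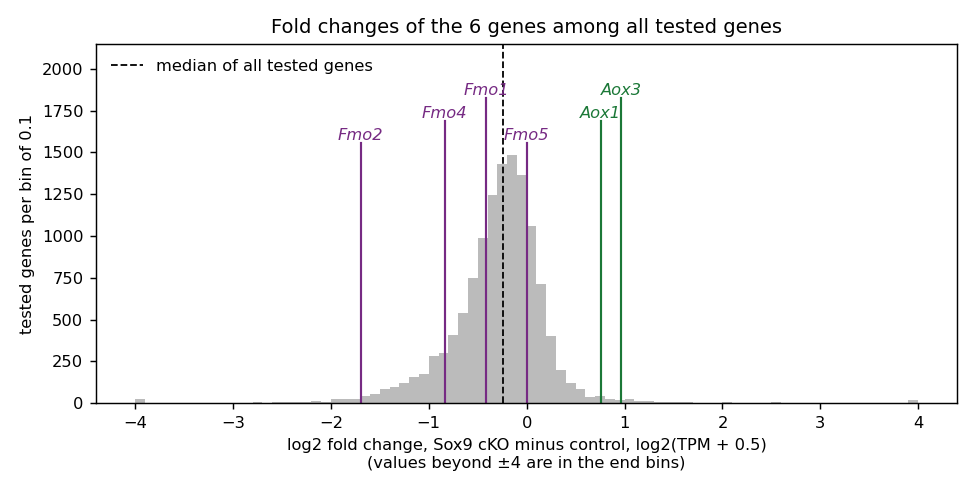
Number of tested genes by log2 fold change, Sox9 cKO minus control, in bins of 0.1, with the 6 genes marked and the median of all tested genes, -0.24, dashed. Aox1 and Aox3 lie in the upper tail, above 98.3% and 98.8% of tested genes, and Fmo2 lies in the lower tail.

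Relative to the median of all tested genes, the fold changes of Aox1 and Aox3 were 0.99 and 1.21 on the log2 scale. The ratio of Aox1 to Aox3, which does not depend on library scaling, was 0.146, 0.175 and 0.114 in Sox9 cKO and 0.163, 0.158 and 0.171 in controls (difference of mean log2 ratios -0.20, exact permutation p = 0.4). The controls lay inside the range of the Sox9 cKO libraries. Together Aox1 and Aox3 summed to 182, 193 and 410 TPM in Sox9 cKO and to 142, 143 and 99.3 TPM in controls (mean 262 ± 128 TPM and 128 ± 24.9 TPM, SD, n = 3 each). The difference of mean log2 sums was 0.95, and 0.57 without Sox9 cKO replicate 3.

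The 4 FMO genes followed here summed to 587, 440 and 503 TPM in Sox9 cKO and to 573, 591 and 675 TPM in controls, and the groups overlapped (exact permutation p = 0.2). The ratio of the AOX sum to this FMO sum was 0.311, 0.439 and 0.814 in Sox9 cKO and 0.248, 0.241 and 0.147 in controls. It was higher in each Sox9 cKO library than in any control, with a difference of mean log2 ratios of 1.22 (exact permutation p = 0.1, the smallest possible). The ratio of Fmo1 to Fmo5 was 0.940, 0.560 and 0.791 in Sox9 cKO and 1.48, 1.17 and 0.569 in controls (exact permutation p = 0.4). Control replicate 3 alone among the controls lay within the Sox9 cKO range.

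**Figure D3:**
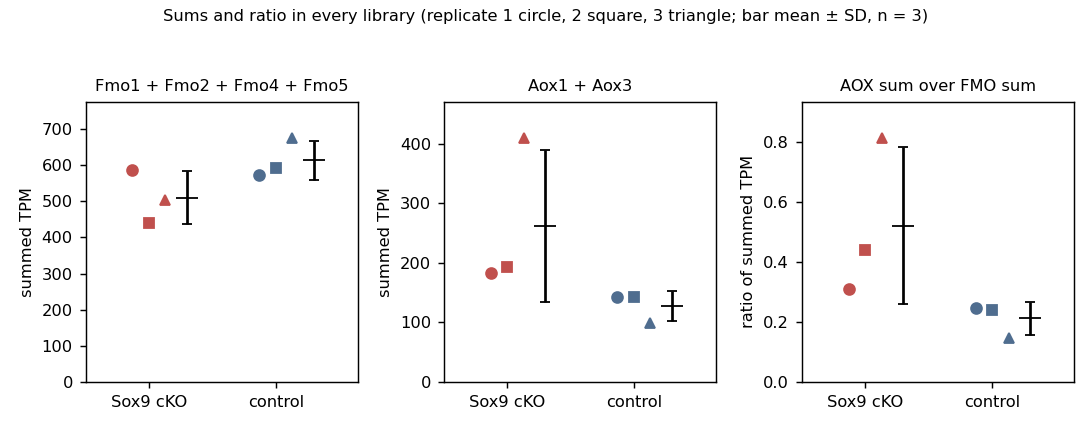
Summed TPM of the 4 FMO genes, summed TPM of the 2 AOX genes, and the ratio of the AOX sum to the FMO sum in each library, Sox9 cKO left and control right, with mean and SD of 3 libraries. The AOX sum and the ratio do not overlap between the groups, while the FMO sums do.

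The order of mean levels differed between the groups, and it also varied between libraries of a group. In Sox9 cKO the means ran Fmo5, Aox3, Fmo1, Aox1, Fmo2 and Fmo4 from high to low, and in controls Fmo5, Fmo1, Aox3, Fmo2, Aox1 and Fmo4. Within libraries, Fmo1 was above Fmo5 in control replicates 1 and 2 (310 against 210 TPM and 297 against 253 TPM) and below it in control replicate 3. Fmo5 was above Fmo1 in every Sox9 cKO library. Aox3 was below Fmo1 in Sox9 cKO replicate 1 (159 against 271 TPM) and above it in replicates 2 and 3. In Sox9 cKO the libraries of Aox3, Fmo5 and Fmo1 all overlapped with each other, and those of Fmo2 with those of Fmo4. In controls the libraries of Fmo5 and Fmo1 overlapped, as did those of Aox1 and Fmo4. Aox1 was above Fmo2 in all 3 Sox9 cKO libraries and below it in all 3 controls, a contrast picked after its values were seen. Of 4 further genes of the families, Fmo9 and Aox4 were listed at 0 in every library, Fmo6 was at 0.12 TPM in 1 control and 0 elsewhere, and Aox2 did not exceed 0.03 TPM.

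**Figure D4:**
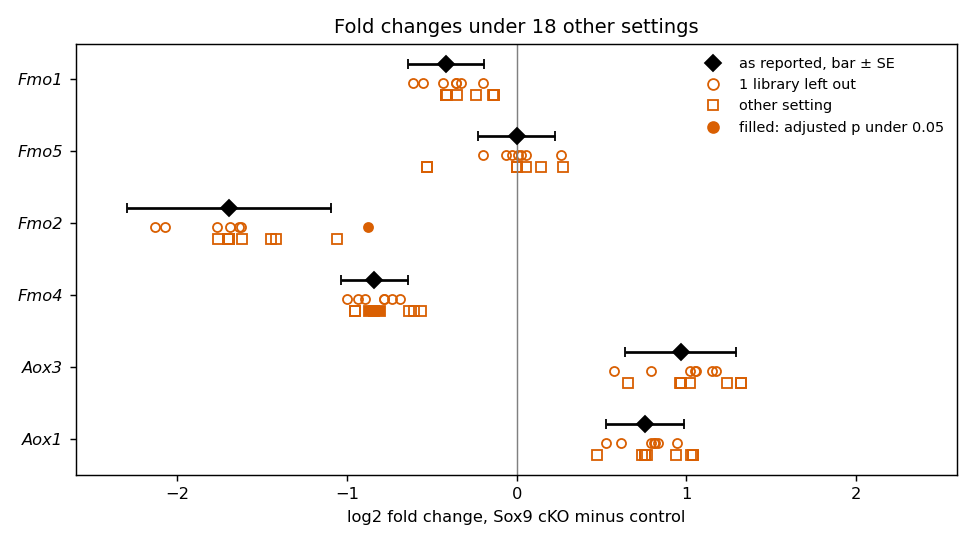
Log2 fold changes of the 6 genes, Sox9 cKO minus control, as reported with SE (diamonds) and under 18 other settings, with 1 library left out (circles) or another scaling, filter, model or set of controls (squares). Filled marks passed an adjusted p of 0.05, which 4 settings gave for Fmo4 and 1 for Fmo2, and only Fmo5 lies on both sides of 0.

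The tested genes flanking the clusters did not pass the test. Clusters were bounded by all annotated family genes, so a flanking gene can lie far from the members. Bzw1 starts at chr1:58392898 and Gorab at chr1:163384908. Beside the aldehyde oxidases, Kctd18 had a log2 fold change of -0.16 (limma adjusted p = 0.600) and Bzw1, on the far side, of -0.34 (limma adjusted p = 0.111). Both were below 0, as was the median of all tested genes (-0.24), while Aox1 and Aox3 were above it. Prrc2c next to Fmo4 had -0.70 (limma adjusted p = 0.123) and Gorab, beyond the FMO genes at the other end, -0.44. The neighbours of Fmo5 were Chd1l at -0.36 and Prkab2 at -0.29.

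Genes whose pattern over the 6 libraries was most like that of a member were ranked by Pearson correlation of log2(TPM + 0.5) among 10916 candidates, as a description only, since 6 points in 2 groups share the group difference. For Aox1 they were Egfr, the epidermal growth factor receptor (r = 0.987), and Sdr9c7, a retinoid dehydrogenase (r = 0.985). Egfr was at 139 to 365 TPM in Sox9 cKO and 83.1 to 124 TPM in controls. Aox3 was nearest to Elmod3 (r = 0.987) and Keg1 (r = 0.982), with Keg1 at 171 to 458 TPM in Sox9 cKO and 74.0 to 117 TPM in controls. Of these only Sdr9c7 passed the test (log2 fold change 1.29, SE 0.32, limma adjusted p = 0.0465). Likeness to Aox1, whose groups do not overlap, already favours such a call, and 0.821% of all tested genes were called higher. Fmo4 was nearest to Nicn1 (r = 0.998) and S1pr3 (r = 0.991), Fmo2 to Ino80d (r = 0.999) and Ensa (r = 0.998), Fmo1 to Terf2 and Tmbim6 (r = 0.991 each), and Fmo5 to Mtmr7 (r = 0.990) and Mir8094 (r = 0.987).

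Of 5 genes of molybdenum cofactor synthesis 0 passed, with a median log2 fold change of 0.21 against -0.24 for all tested genes, and 1 was called higher after median centring, quantile normalization or with array weights. Mocs3, which hands sulfur to the cofactor, was at 5.49 to 6.56 TPM in Sox9 cKO and 3.37 to 5.12 TPM in controls (log2 fold change 0.53, limma adjusted p = 0.104), without overlap. Mocos, the sulfurase that activates aldehyde oxidases, had 32.3, 37.0 and 28.4 TPM in Sox9 cKO libraries and 35.1, 25.2 and 27.2 TPM in controls, so the groups overlapped. The other molybdenum enzymes Xdh and Suox did not pass (0 of 2), and Mtarc1 and Mtarc2 had no row under these or their older symbols, although some rows carry calendar dates in place of symbols and could hold them. Of 8 genes of flavin and NADPH supply 0 passed, with a median of -0.00, and 1 was called higher with array weights, with a replicate block or without Sox9 cKO replicate 3. Me1, malic enzyme, which makes NADPH, had 194, 355 and 102 TPM in Sox9 cKO libraries and 94.8, 72.8 and 38.5 TPM in controls, so the groups did not overlap (log2 fold change 1.57, SE 0.47, limma adjusted p = 0.0735). Por and Rfk did not overlap either, with Sox9 cKO lower (log2 fold changes -0.66 and -0.32, limma adjusted p = 0.141 and 0.152). Among all tested genes the groups did not overlap for 33.7% with Sox9 cKO lower and for 3.79% with Sox9 cKO higher. Mocs3, Mocos, Me1, Por and Rfk were singled out after their values were seen.

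Among 16 other dehydrogenases, oxidases and carbonyl reductases that act without cytochrome P450, 1 fell and 0 rose, with a median log2 fold change of -0.04. Over all tested genes 8.76% were called lower and 0.821% higher. Aldh1b1, a mitochondrial aldehyde dehydrogenase, had 100.4, 75.2 and 51.0 TPM in Sox9 cKO libraries and 151, 125 and 195 TPM in controls (log2 fold change -1.08, SE 0.26, limma adjusted p = 0.0430). Of 5 taurine genes 1 fell, Slc6a6, the taurine transporter, at 20.8 to 23.2 TPM in Sox9 cKO and 32.2 to 42.2 TPM in controls (log2 fold change -0.71, SE 0.14, limma adjusted p = 0.0254). Of 5 genes of nicotinamide use 0 passed, with a median of -0.47. The Aldh1b1 call was lost in 14 and the Slc6a6 call in 8 of 18 other settings, including removal of any single control.

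Of 14 listed regulators of FMO or AOX genes, all transcription factors except Keap1, a binding partner of NRF2, 1 fell and 0 rose. Among all tested genes 8.76% were called lower and 0.821% higher. The 14 had a median log2 fold change of -0.30. With array weights 4 were lower and 2 higher. Ahr, the receptor of dioxins and other aromatic ligands, had 9.77, 6.59 and 12.6 TPM in Sox9 cKO libraries and 22.6, 21.2 and 18.1 TPM in controls (log2 fold change -1.09, SE 0.23, limma adjusted p = 0.0303). Of 9 tested target genes of AHR and NRF2, 1 fell and 0 rose, with a median of -0.24, close to that of all tested genes. Cyp1a1 and Cyp1a2 were above 0 (log2 fold changes 0.29 and 0.52, limma adjusted p = 0.433 and 0.258), with overlapping groups. The other tested genes of the list were below 0. Targets of AHR were not tested apart from those of NRF2. Hmox1, heme oxygenase, had 14.7, 12.8 and 20.3 TPM in Sox9 cKO libraries and 42.4, 41.3 and 44.5 TPM in controls (log2 fold change -1.43, SE 0.18, limma adjusted p = 0.00668). Hmox1 is also abundant in macrophages, 4 of whose 6 markers were called lower, and their part in this difference was not tested. The Ahr call was lost in 8 of 18 other settings, among them the removal of any single control or of Sox9 cKO replicate 1, and Hmox1 missed the threshold with the sex-marker term and with control replicate 3 alone. Both settings gave Hmox1 the same log2 fold change, -1.48, with limma adjusted p of 0.0698 and 0.214.

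**Figure D5:**
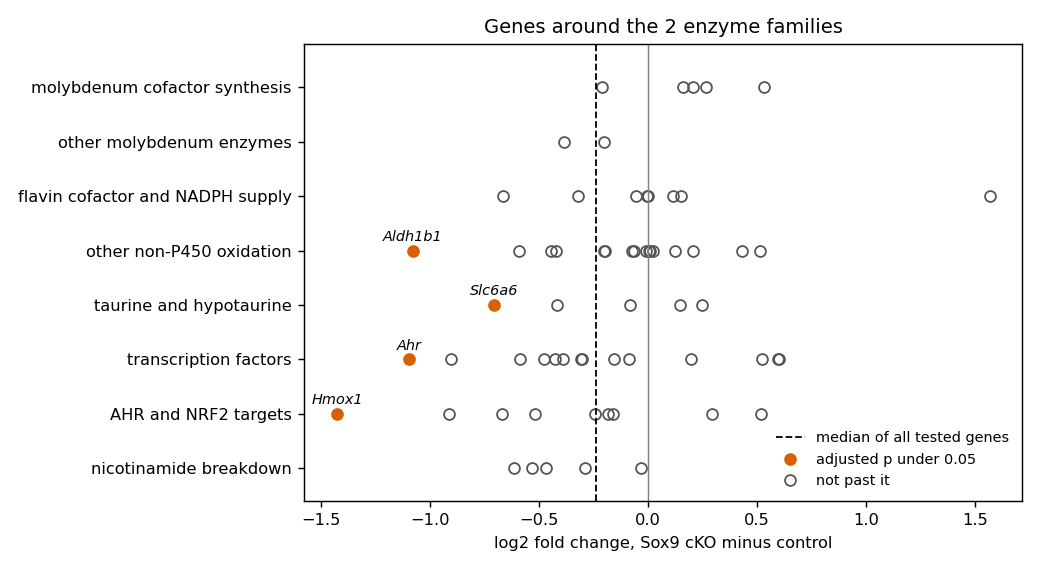
Log2 fold changes, Sox9 cKO minus control, of the tested genes in 8 lists around the 2 enzyme families, with the median of all tested genes dashed. Filled points passed an adjusted p of 0.05, namely Aldh1b1, Slc6a6, Ahr and Hmox1, all lower in Sox9 cKO.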

How the data were processed

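Per the submitters' processing notes, reads were trimmed with Trim Galore 0.5.0 and cutadapt 1.16, aligned to mm10 with STAR 2.6.0a and quantified with RSEM 1.3.1. The authors deposited 1 table of TPM with 1 column per library, each summing to about 1000000. Neither the annotation nor the strand setting is stated in the sources used here. Columns were matched to samples by the library numbers in the labels. Genes averaging 0.5 TPM or more over the 6 libraries entered limma 3.58.1 (R 4.3.3) as log2(TPM + 0.5), in a model of group alone with a variance trend. Errors are SE of the fit or SD of TPM, and all tests are two-sided. Start-site windows are from RefSeq, positions from GENCODE M21. Figures were drawn with matplotlib 3.10.9.

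The members and lists were chosen with earlier results of these data known. Named genes were the 6 members, Sox9, list genes past the threshold, family genes, and the nearest genes by position and by pattern. Mocos, Mocs3, Me1, Por, Rfk, Cyp1a1, Cyp1a2 and some markers were named outside it, after their values were seen. An item that this rule takes is not reported here, and sums over FMO genes cover only the 4 members.

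Alternatives were other pseudocounts (0.1 and 1), filters, scalings and variance models, array weights, a replicate block, a sex-marker term (Xist above 10 TPM), control replicate 3 alone, and leaving out each library.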

Additional observations from a re-analysis of the deposited data

How the results depend on the processing

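Fmo1, Fmo2, Fmo4, Aox1 and Aox3 kept their direction in all 18 other settings. Much of this was fixed in advance. The filters, the fit without a variance trend and the replicate block return the fold change of the main fit. For Fmo2, Fmo4, Aox1 and Aox3, whose groups do not overlap, leaving out libraries cannot change the direction. Fmo4 did not pass without a filter (log2 fold change -0.84), after median centring (-0.56), rescaling (-0.78), quantile normalization (-0.60), array weights (-0.63), the sex-marker term (-0.96) or with control replicate 3 as the only control (-0.96), so that 0 of the 6 genes were then called lower. Fmo5, at 0.00 in the main fit, was at -0.53 with the sex-marker term and with control replicate 3 alone. These 2 settings give the same estimates and differ only in the spread and degrees of freedom. The cause was not tested. Over all genes, 256 were lower after median centring, 215 after quantile normalization, 252 higher and 2312 lower with array weights, 21 and 49 with the sex-marker term, and 9 and 18 with control replicate 3 alone, where fewer samples enter.

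With a replicate block 563 genes were lower, Fmo4 (-0.84, adjusted p = 0.0652) was not called and 0 of the 6 genes passed. Same-numbered libraries did not deviate together (correlations of -0.04, 0.00 and -0.03), so the numbers were not taken as pairs.

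Leaving out 1 library gave 32 to 107 higher and 104 to 1003 lower genes, with 0 of the 6 genes higher and 0 to 1 lower. Log2 fold changes then ran from -0.61 to -0.20 for Fmo1, -2.13 to -0.88 for Fmo2, -1.0 to -0.69 for Fmo4, -0.20 to 0.26 for Fmo5, 0.53 to 0.95 for Aox1 and 0.57 to 1.18 for Aox3. Fmo2 passed without Sox9 cKO replicate 2. Differences of log2 sums or ratios ran from 0.57 to 1.16 for the AOX sum, -0.38 to -0.17 for the FMO sum, 0.84 to 1.53 for AOX to FMO, -0.34 to -0.04 for Aox1 to Aox3, and -0.82 to -0.13 for Fmo1 to Fmo5. With 3 libraries per group and unknown depth, a p that misses the threshold does not show that levels were equal.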
